A study of Mus musculus with 6 samples.

Results

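The genes described here are 10 members of the BCL2 family, picked by gene symbol from the 26286 genes that both deposited count tables hold. They are the survival genes Bcl2, Bcl2l1 (BCL-XL), Mcl1, Bcl2a1b and Bcl2a1d (both A1), the BH3-only genes Bcl2l11 (BIM), Bid and Bbc3 (PUMA), and the effector genes Bax and Bak1. They were followed in regulatory T cells (Treg), the CD4+ T cells that depend on the transcription factor Foxp3 and restrain immune responses.

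The BCL2 family controls the mitochondrial step of apoptosis. BAX and BAK open pores in the outer membrane and release cytochrome c, survival proteins such as BCL-2, BCL-XL, MCL-1 and A1 hold them back, and BH3-only proteins such as BIM, PUMA and BID bind the survival proteins or activate the effectors. In T cells, BIM is needed for death after cytokine withdrawal, interleukin 2 and interleukin 7 signals raise survival members, and MCL-1 is required for Treg to persist.

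The animals were C57BL/6 mice with a Blimp1/GFP reporter, in which green fluorescent protein (GFP) marks cells that express Prdm1, the gene of the transcriptional repressor Blimp-1. The sample names carry the prefix BlimpHet, and GFP+ and GFP- cells both came from reporter mice, so no cells without the reporter were compared. CD4+ CD25high cells were sorted from spleens and lymph nodes that had been pooled, and the number of animals in a pool, their age and their sex are not stated in the labels. Messenger RNA of 1 library of each population was selected by its poly(A) tail (replicate 20 of GFP- and replicate 19 of GFP+ cells). The other 2 libraries of each population were made by a single-cell protocol (GFP- replicates 2 and 5, GFP+ replicates 1 and 4), which here was applied to sorted populations. Per the series' design, the 3 samples of each population were biologically independent. A p-value here weighs a difference against the spread among those samples. In the fitted models the spread of a gene is estimated with help from that of the other tested genes.

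Libraries held between 15224051 and 28354321 counts. Prdm1 itself stood at 9.13, 2.46 and 2.66 CPM (counts scaled to a common library size) in the GFP- libraries, replicates 20, 2 and 5 in turn, and at 152, 44.3 and 29.5 CPM in the GFP+ libraries, replicates 19, 1 and 4 in turn, in the direction of the sort. Foxp3 and Cd4 were abundant in all 6 libraries, and of 8 tested Treg and CD4 T cell markers 1, Ctla4, was called higher in GFP+ cells and none lower. Their summed level was between 3133 and 5710 CPM in GFP- and between 3336 and 6692 CPM in GFP+ libraries. Markers of other cells moved with the populations too: 13 of 13 tested macrophage markers were higher in GFP+ cells, with a summed level of 13.6 to 29.4 CPM in GFP- and 779 to 1783 CPM in GFP+ libraries. Of these, Itgam was at 0 in GFP- replicates 2 and 5 and Cd14 in GFP- replicate 5. Of 8 cell cycle genes 6 were higher, with summed levels of 45.3 to 93.9 against 289.6 to 566 CPM. Of 4 tested erythroid markers 2 were higher, with summed levels of 34.0 to 593 CPM in GFP- and 96.6 to 1808 CPM in GFP+ libraries, which overlap. Of 4 tested plasma cell markers 2 (Sdc1 and Irf4) and of 5 tested B cell markers 1 (Blk) were higher, and 1 of 2 tested CD8 T cell markers (Cd8a) and 1 of 2 tested natural killer cell markers (Ncr1) were lower. The part of RNA of these other cells and of cycling cells in the results on the BCL2 family was not tested, and in sorted populations fewer cells of a type and less RNA per cell cannot be told apart.

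Between GFP+ and GFP- Treg, Bcl2 and Bcl2l11 fell and Bak1 rose, while Bcl2l1, Bax, Bid and Bbc3 were higher in GFP+ libraries without passing the test. The comparison used edgeR's quasi-likelihood test across 10523 genes over the 6 libraries, with a term for the protocol, and a gene is called where its p-value, adjusted by Benjamini-Hochberg over all tested genes, is under 0.05. Of the 10 members 7 could be tested, and 3 of these were called, against 13.5% of all tested genes. Bcl2 and Bcl2l11 were lower, as were 3.68% of tested genes, and Bak1 was higher, as were 9.81%. The 7 tested members had a median log2 fold change (GFP+ against GFP-) of 0.47 and all tested genes one of -0.08.

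In each tested member, both GFP+ single-cell protocol libraries lay on 1 side of both GFP- ones, and the poly(A) pair differed in the same direction. This held for 40.6% of all tested genes. Of the members 5 were higher in this sense, against 21.3% of tested genes, and 2 were lower, against 19.3%. A test of whether the difference between populations depended on the protocol called 0% of genes in edgeR, with 24 genes and no member at an unadjusted p under 0.05. Among 10523 genes this is fewer than that threshold would give without any dependence. With 1 poly(A) library a population the test could detect little, so it does not show that the difference was the same in both protocols.

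Mcl1, Bcl2a1b and Bcl2a1d had 0 counts in all 4 single-cell protocol libraries and are described from the poly(A) pair alone. In the single-cell protocol table this was a matter of whole chromosomes. Among genes with at least 100 counts over the poly(A) pair, 541 of 542 on chromosome 3, where Mcl1 lies, had 0 counts there, as had 637 of 637 on chromosome 9, the chromosome of the A1 genes, and 631 of 631 on chromosome 8. These zeros are therefore not read as absence of expression.

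**Figure D1:**
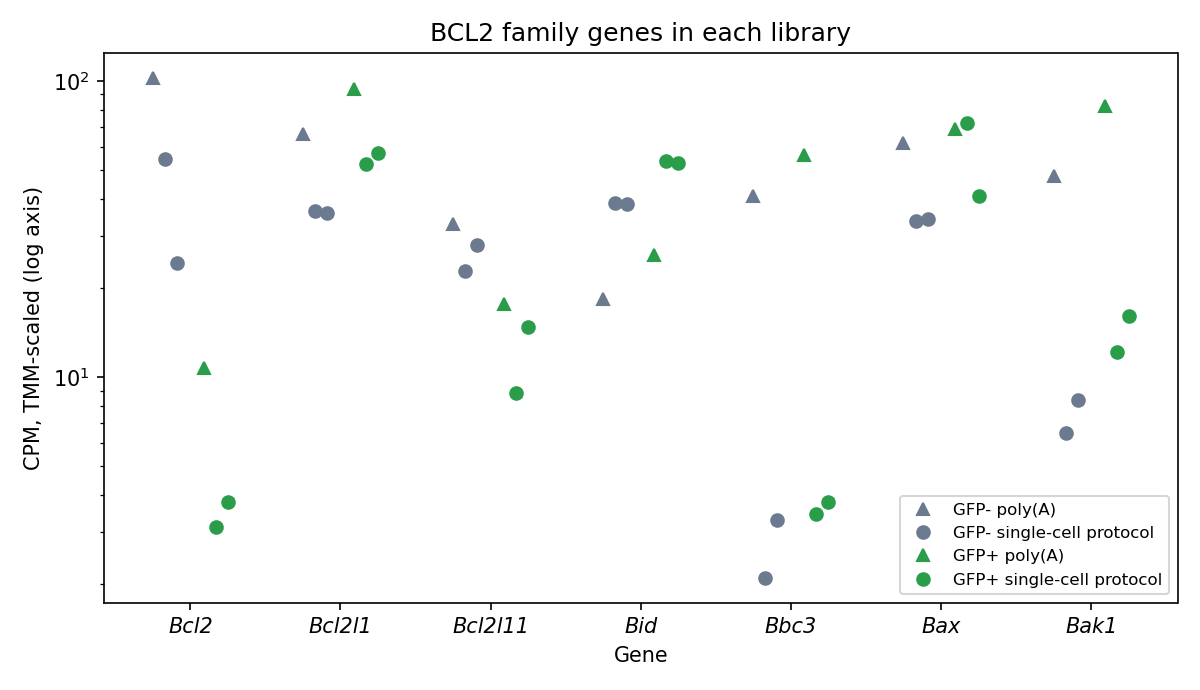
Level of the 7 tested members in each of the 6 libraries, in CPM scaled by TMM on a log axis; each point is 1 library, colours mark the populations and marker shapes the protocols. Within each protocol GFP+ lies below GFP- in Bcl2 and Bcl2l11, and above it in the other 5.

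Among the survival genes, Bcl2, the founding member of the family and a target of interleukin 7 signals in T cells, differed most. Its level was 102 CPM in GFP- replicate 20, 54.3 CPM in replicate 2 and 24.3 CPM in replicate 5. GFP+ replicate 19 had 10.7 CPM, replicate 1 had 3.11 CPM and replicate 4 had 3.77 CPM (CPM here and below are scaled by TMM, edgeR's trimmed mean of M-values, unless a library total is named). Within each protocol the GFP+ libraries lay below the GFP- libraries. The order across protocols depends on the scaling and is not read as a result. The fit put the log2 fold change of Bcl2 at -3.42 ± 0.34 (SE, 3 libraries a population), a level 10.7-fold lower in GFP+ cells (edgeR, adjusted p = 0.000357). GFP- replicates 2 and 5 differed from each other by 2.24-fold and GFP+ replicates 1 and 4 by 1.21-fold, so the spread inside the GFP- group was the wider one. The log2 difference was -3.25 in the poly(A) pair and -3.41 between the single-cell protocol libraries.

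Since Bcl2 carries the largest difference, the 250 bases before its RefSeq transcript start are shown, chr1:106714291-106714540 of GRCm38.p6, minus strand, in transcript direction, with no exon annotated inside. The members' windows were searched on both strands for GTAAACA, a FOXO motif, and for GTGAAAG and GCGAAAG, short forms of the Blimp-1 motif, and for an NF-kB motif, and the Bcl2 window holds none of these. The NF-kB motif was in none of the 15 RefSeq windows of the members, the A1 genes included, and in 0.356% of all windows.
Bcl2: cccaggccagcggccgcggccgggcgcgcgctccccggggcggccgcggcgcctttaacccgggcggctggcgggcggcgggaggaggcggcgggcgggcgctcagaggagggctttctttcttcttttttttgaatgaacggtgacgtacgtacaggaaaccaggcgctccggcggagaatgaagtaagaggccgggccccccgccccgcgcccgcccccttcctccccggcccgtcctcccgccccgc

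The gene of BCL-XL, Bcl2l1, a survival member induced when T cells are activated, was at 66.4, 36.3 and 35.7 CPM in GFP- replicates 20, 2 and 5. In GFP+ replicates 19, 1 and 4 it was at 93.6, 52.4 and 56.9 CPM. Each GFP+ library was above the GFP- libraries of its protocol, but the log2 fold change of 0.57 ± 0.20 (SE) did not pass after adjustment (edgeR, adjusted p = 0.107, 95% interval of the log2 fold change 0.11 to 1.02). The spread of this gene within the single-cell protocol was narrow, at 1.02-fold between the GFP- and 1.09-fold between the GFP+ libraries. A decrease of Bcl2l1 parallel to that of Bcl2 lies outside this interval.

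For Mcl1, a short-lived survival protein, the poly(A) libraries held 18876 counts in GFP- replicate 20 and 13597 in GFP+ replicate 19. Scaled to library totals these are 693 and 480 CPM, 1.45-fold lower in the GFP+ library. The log2 ratio was -0.53, with an exact 95% interval of -0.56 to -0.50 that covers counting error only, since there is 1 library a population and no test. The authors' deposited log2 RPKM (reads per kilobase of gene, adjusted for library size), which were scaled in another way, put this difference at -0.82. Neither value passes 2-fold, which 19.5% of 14622 genes with at least 20 counts in the pair did.

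Both A1 genes, Bcl2a1b and Bcl2a1d, encode a survival protein that NF-kB induces in activated lymphocytes and myeloid cells. Bcl2a1b had 499 counts in the GFP- and 935 in the GFP+ poly(A) library, or 18.3 and 33.0 CPM of library totals, a log2 ratio of 0.85 (counting interval 0.69 to 1.01). Bcl2a1d had 512 and 970 counts, or 18.8 and 34.2 CPM, a log2 ratio of 0.86 (0.71 to 1.02). The 2 genes cannot be read as independent: their transcripts differ at 7 of 817 aligned bases (99.14% identity), and 57.55% of the 50-base windows of the Bcl2a1b transcript occur unchanged in that of Bcl2a1d. Reads may therefore be shared between them, and the sum over the 4 Bcl2a1 genes is the safer value. This sum was 1191 counts in the GFP- and 2249 in the GFP+ library, or 43.8 and 79.3 CPM, a log2 ratio of 0.86 (0.76 to 0.96). Neither A1 gene passed 2-fold on library totals, and both did in the deposited log2 RPKM, with differences of 1.07 and 1.10. In the same 2 libraries the macrophage markers summed to 13.6 and 779 CPM, and their part in the A1 values was not tested.

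The 250-base windows before the starts of the A1 copies are nearly as alike as their transcripts where they align, with 198 of 200 aligned bases identical. Gaps and unaligned bases are not counted in this. The window of Bcl2a1d overlaps 2 annotated exons and that of Bcl2a1b overlaps 1. Each of the 2 windows holds GTGAAAG, here on the reverse strand as CTTTCAC (capitals). It lies 93 bases before the RefSeq start of Bcl2a1b and 49 before that of Bcl2a1d. For Bcl2a1b the exon-free part of the window is shown, chr9:89199023-89199208 of GRCm38.p6, plus strand, and for Bcl2a1d the site with 10 bases on each side, chr9:88731883-88731909, minus strand. The 27 bases around the site are the same in both. The motif occurs in 3.57% of 32851 RefSeq windows of the same length, and a match is a description of letters and not of binding.
Bcl2a1b: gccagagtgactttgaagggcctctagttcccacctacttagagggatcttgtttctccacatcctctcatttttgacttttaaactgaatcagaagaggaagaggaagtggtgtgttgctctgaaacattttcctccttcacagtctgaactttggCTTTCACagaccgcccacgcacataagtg
Bcl2a1d: tgaactttggCTTTCACagaccgccca

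Among the BH3-only genes, Bcl2l11 fell, while Bid and Bbc3 did not pass the test. Bcl2l11, which encodes BIM, was at 32.8, 22.8 and 28.0 CPM in GFP- replicates 20, 2 and 5. In GFP+ replicates 19, 1 and 4 it was at 17.7, 8.83 and 14.8 CPM. Again each GFP+ library was below the GFP- libraries of its protocol. Across the protocols the order depended on scaling and gene length. In RPKM on library totals, GFP+ replicate 19 (6.09) lay above GFP- replicate 5 (4.84). The log2 fold change of Bcl2l11 was -1.03 ± 0.26 (SE), a 2.04-fold lower level (edgeR, adjusted p = 0.0303). The call was lost without GFP- replicate 20 (adjusted p = 0.160), GFP+ replicate 19 (0.159) or GFP+ replicate 1 (0.105), in the 4 single-cell protocol libraries alone (0.140) and with library totals in place of TMM (0.147), all edgeR fits in which the log2 fold change stayed between -0.83 and -1.11.

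Bid, whose protein is cut by caspase-8 and so links death receptors to mitochondria, was at 18.4, 38.8 and 38.5 CPM in the GFP- libraries, in the same order. In the GFP+ libraries it was at 25.9, 53.7 and 52.9 CPM. The replicates of a population differed by at most 1.02-fold within the single-cell protocol, and the log2 fold change was 0.47 ± 0.20 (SE; edgeR, adjusted p = 0.160, 95% interval 0.03 to 0.92).

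Bbc3, which encodes the p53 and FOXO target PUMA, was at 40.9, 2.10 and 3.29 CPM in the GFP- and at 56.1, 3.44 and 3.77 CPM in the GFP+ libraries. Its log2 fold change was 0.45 ± 0.25 (SE; edgeR, adjusted p = 0.287, 95% interval -0.11 to 1.02). After TMM scaling it differed by 1.57-fold between GFP- replicates 2 and 5, more than the 1.37-fold difference fitted between the populations. On library totals these 2 libraries were at 0.899 and 0.864 RPKM.

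The genes of BIM and PUMA are the members whose promoter windows hold the FOXO motif, which occurs in 3.17% of the 32851 windows. RefSeq gives Bcl2l11 a second start and Bbc3 other starts whose windows do not hold it. The windows with the motif are shown because the 2 genes share the motif, and Bcl2l11 passed the test of the populations while Bbc3 did not. For Bcl2l11 it is chr2:128125788-128126037 and for Bbc3 chr7:16310011-16310260, both GRCm38.p6, plus strand and free of annotated exons. Capitals mark the motif, GTAAACA at 227 bases before a start of Bcl2l11 and its reverse complement TGTTTAC at 167 bases before a start of Bbc3.
Bcl2l11: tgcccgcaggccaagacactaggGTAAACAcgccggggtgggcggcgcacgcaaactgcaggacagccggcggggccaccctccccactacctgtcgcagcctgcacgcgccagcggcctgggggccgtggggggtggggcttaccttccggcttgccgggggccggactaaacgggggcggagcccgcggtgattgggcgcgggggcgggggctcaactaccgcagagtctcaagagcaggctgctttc
Bbc3: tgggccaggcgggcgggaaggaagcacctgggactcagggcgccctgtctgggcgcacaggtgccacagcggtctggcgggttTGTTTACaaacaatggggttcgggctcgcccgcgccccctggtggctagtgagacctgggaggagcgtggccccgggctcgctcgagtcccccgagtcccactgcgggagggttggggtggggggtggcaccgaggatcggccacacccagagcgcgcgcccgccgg

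The effectors, BAX and BAK, carry out membrane permeabilisation. Bax was at 61.8, 33.8 and 34.1 CPM in GFP- replicates 20, 2 and 5. The GFP+ libraries had 68.7 CPM in replicate 19, 72.3 CPM in replicate 1 and 40.8 CPM in replicate 4. The GFP+ replicates 1 and 4 differed by 1.77-fold, and the log2 fold change of Bax was 0.54 ± 0.27 (SE; edgeR, adjusted p = 0.253, 95% interval -0.08 to 1.16). Bak1 was at 47.9, 6.45 and 8.36 CPM in the GFP- libraries and at 82.3, 12.2 and 16.1 CPM in the GFP+ libraries. It was thus higher in GFP+ cells within both protocols, with a log2 fold change of 0.88 ± 0.23 (SE), or 1.85-fold (edgeR, adjusted p = 0.0359).

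The Bak1 call was less settled than that of Bcl2. It was lost when any library other than GFP- replicate 5 was left out (edgeR, adjusted p between 0.0700 and 0.244), with library totals (0.0750) or RLE factors (0.0520) in place of TMM and in the single-cell protocol libraries alone (0.256), while its log2 fold change stayed between 0.74 and 1.00.

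**Figure D2:**
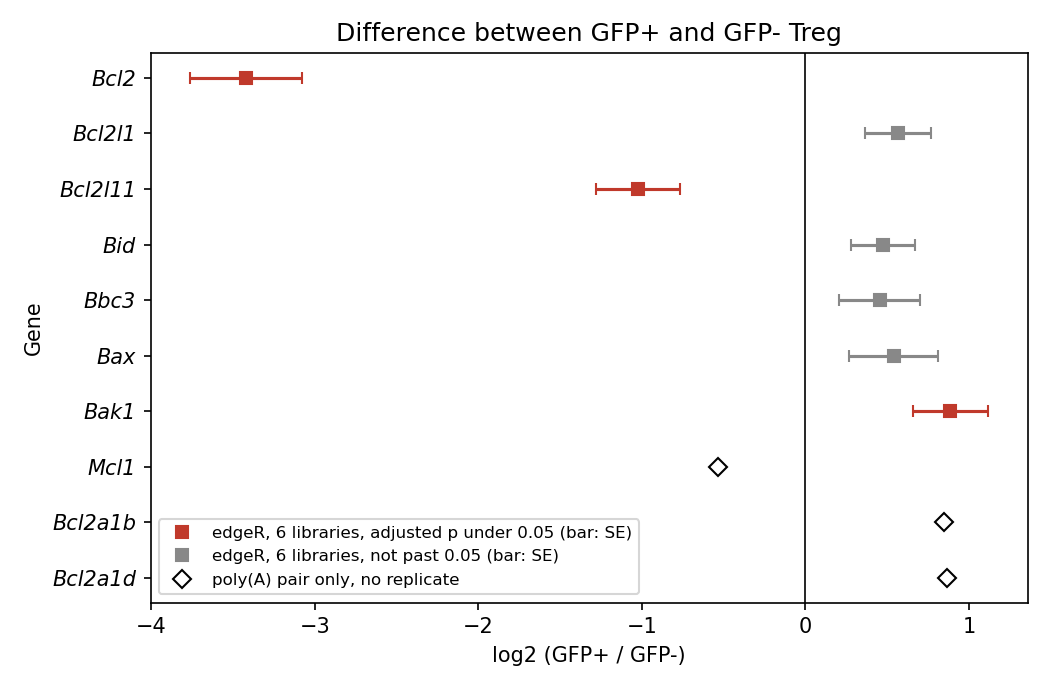
Log2 difference of GFP+ from GFP- Treg for each member; squares are edgeR estimates with bars of 1 SE for the 7 tested members, red where called, and open diamonds are poly(A) log2 ratios without replicates for the other 3. Bcl2 lies at -3.42, apart from all other members, which lie between -1.03 and 0.88.

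Because the levels of several members shift within 1 library, ratios between members were taken inside each library, per kilobase of gene, where scaling between libraries plays no part. The ratio of Bcl2l11 to Bcl2 was 0.493, 0.419 and 1.15 in GFP- replicates 20, 2 and 5. It was 2.54, 2.84 and 3.92 in GFP+ replicates 19, 1 and 4. So the gene of the death promoter was above that of the survival protein in every GFP+ library and in 1 of 3 GFP- libraries, although Bcl2l11 itself was lower in GFP+ cells. The mean log2 difference was 2.32, and the exact two-sided permutation test within protocols gave p = 0.167, which is the smallest p that its 12 arrangements allow.

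The ratio of Bcl2l1 to Bcl2, both survival genes, was 2.12, 0.845 and 1.86 in the GFP- and 28.5, 21.3 and 19.1 in the GFP+ libraries. The length used for Bcl2 was 7749 bases in the poly(A) and 3000 in the single-cell protocol table, and that of Bcl2l1 was 2371 in both. The size of a ratio to Bcl2, and whether it is above 1, therefore depends on the table, and ratios are best compared within a protocol. The ratio of Bax to Bcl2 was 5.38, 2.14 and 4.84 in the GFP- and 57.2, 80.3 and 37.3 in the GFP+ libraries. Neither ratio overlapped between the populations, and both mean log2 differences, 3.88 and 3.75, had the same exact permutation p of 0.167. These ratios and that of Bcl2l11 to Bcl2 share Bcl2 as the denominator. Their separation therefore largely restates the lower Bcl2 level in GFP+ cells and is no separate result. The ratio of Bak1 to Bax, the 2 effectors, did overlap, at 0.337, 0.0829 and 0.106 against 0.520, 0.0732 and 0.171, with a mean log2 difference of 0.44 (exact permutation p = 0.5).

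**Figure D3:**
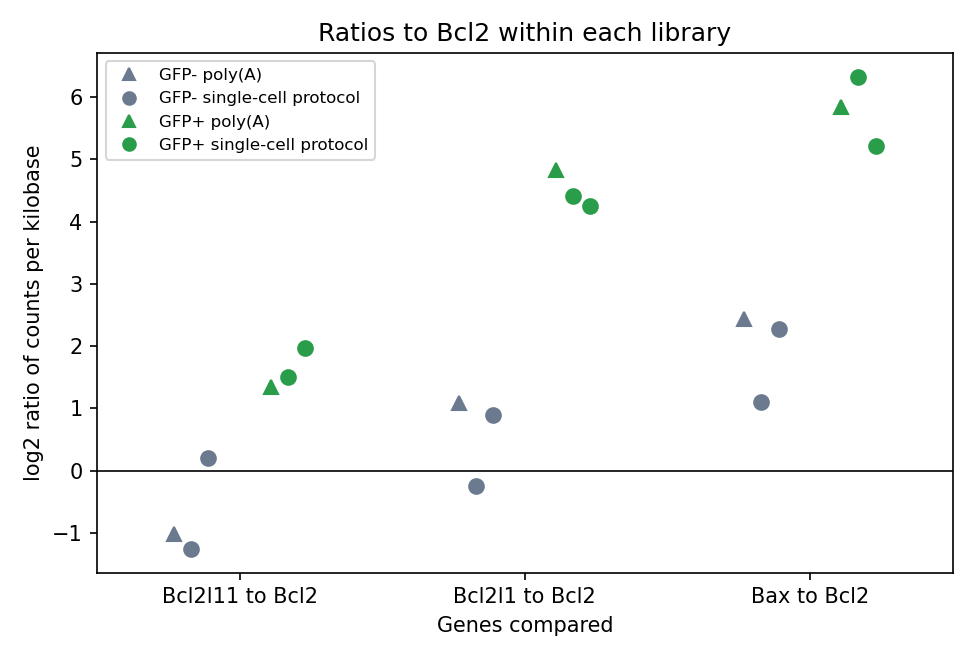
Log2 ratios of Bcl2l11, Bcl2l1 and Bax to Bcl2 within each library, in counts per kilobase; each point is 1 library, with colours for the populations and marker shapes for the protocols. In all 3 ratios every GFP+ library lies above every GFP- library. All share Bcl2, itself lower in GFP+ cells, as the denominator, and its length differs between the tables of the protocols.

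Levels of different genes can be compared only per length, so their order is given in RPKM on library totals. In the poly(A) GFP- library Mcl1 led with 199 RPKM, followed by Bax with 120 and Bcl2l1 with 47.3. Next came Bak1 with 40.4, Bbc3 with 35.0, Bcl2a1b with 24.0, Bcl2a1d with 23.6 and Bcl2 with 22.3 RPKM, and Bid with 16.4 and Bcl2l11 with 11.0 RPKM were lowest. In the GFP+ library Mcl1 and Bax were equal to within 1 RPKM, at 137.4 and 137.1. They were followed by Bak1 (71.3 RPKM), Bcl2l1 (68.4 RPKM), Bbc3 (49.3 RPKM), the A1 genes (43.2 and 43.0 RPKM) and Bid (23.7 RPKM). Bcl2 moved from rank 8 to rank 10, the lowest, at 2.40 RPKM, below Bcl2l11 with 6.09 RPKM. With 1 library a population, the order in the poly(A) pair has no replicate check.

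Within the poly(A) pair the 5 survival genes together summed to 316 RPKM in the GFP- and 294 RPKM in the GFP+ library. Bcl2 made up 7.06% of it in the GFP- and 0.815% in the GFP+ library, and Mcl1 62.9% and 46.7%. Bcl2l1 made up 15.0% and 23.2%, Bcl2a1b 7.59% and 14.7%, and Bcl2a1d 7.48% and 14.6%. These are shares of RNA of named genes, from single libraries, and not of protein.

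**Figure D4:**
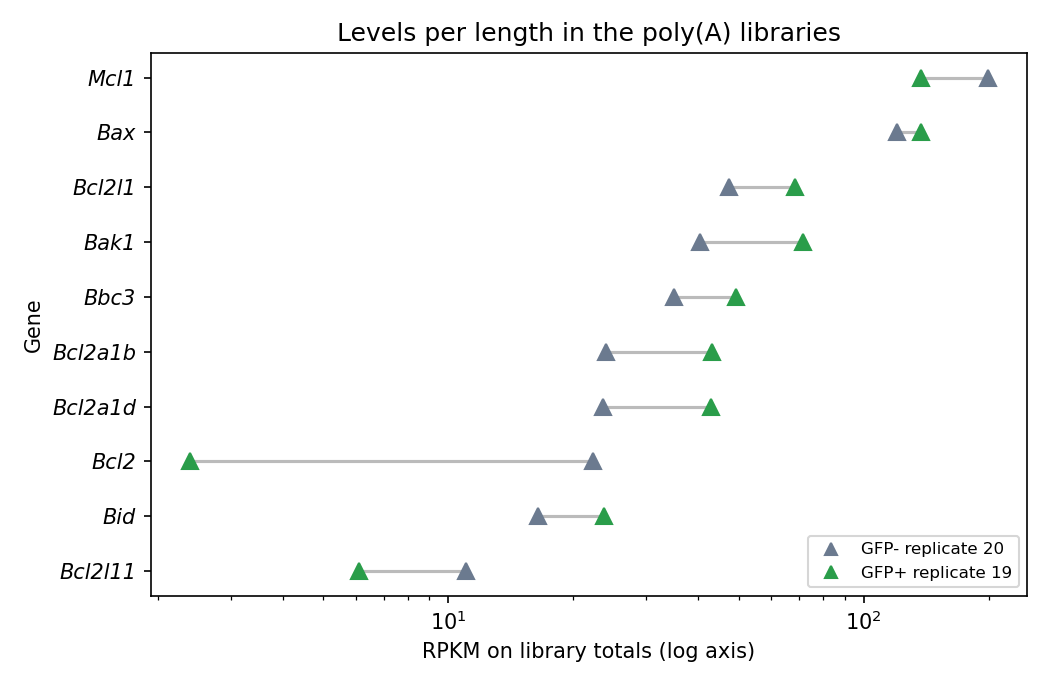
Level of each member in the poly(A) libraries in RPKM on a log axis, with 1 triangle each for GFP- replicate 20 and GFP+ replicate 19. Mcl1 and Bax are the highest in both, and Bcl2 falls from 22.3 to 2.40 RPKM, the lowest of the 10 members in the GFP+ library.

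In the single-cell protocol libraries the order over the 7 tested members was Bax, Bid, Bcl2l1, Bcl2, Bcl2l11, Bak1 and Bbc3 in GFP- cells, with means of 26.6, 14.0, 10.4, 9.76, 5.63, 2.44 and 0.882 RPKM. The replicate ranges of Bid and Bcl2l1, of Bcl2l1 and Bcl2 and of Bcl2 and Bcl2l11 overlapped. Inside each library Bid was still above Bcl2l1, at 17.4 against 12.9 RPKM in replicate 2 and 10.6 against 7.81 RPKM in replicate 5. Bcl2 was above both Bcl2l1 and Bcl2l11 in replicate 2 and below both in replicate 5. In GFP+ cells the order was Bax, Bid, Bcl2l1, Bak1, Bcl2l11, Bbc3 and Bcl2, with means of 47.4, 20.9, 17.1, 5.27, 2.96, 1.35 and 0.853 RPKM, and no neighbours overlapped. Bcl2 was thus the lowest tested member in GFP+ libraries of either protocol. Gene lengths in the single-cell protocol table are limited to 3000 bases, so Bcl2 and Bcl2l11 are divided by a smaller length there than in the poly(A) table. Whether their counts were limited in the same way is not stated, so the effect on their RPKM is not known.

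The genes whose pattern was most like that of Bcl2 over the 6 libraries, by Euclidean distance of log2 CPM centred within each protocol among 5980 genes, were Ccdc64 (distance 0.47), Atp1b1 (0.63), which encodes a subunit of the sodium pump, and Dnah7a (0.64), a dynein heavy chain gene. Their log2 fold changes were -3.23, -3.17 and -3.61. Closest to Bcl2l11 were Pdcd4 (distance 0.12), which encodes an inhibitor of translation initiation, Decr1 (0.13), a gene of fatty acid oxidation, and Oat (0.16), a gene of ornithine metabolism, with log2 fold changes of -1.04, -1.10 and -0.94. All of these were chosen for their likeness, so their fold changes are descriptions.

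Around the 10 members, other genes of the apoptosis pathway mostly did not pass the test. Over all tested genes 9.81% were called higher and 3.68% lower, which is the background for the counts below. Of 10 tested further BCL2 family genes 1 was called higher and none lower, with a median log2 fold change of 0.27. The called gene was Pmaip1, which encodes the BH3-only protein NOXA, a partner of MCL-1 and A1. Pmaip1 stood at 2.30, 2.10 and 1.77 CPM in the GFP- libraries (20, 2 and 5), below the 7.14, 3.93 and 5.73 CPM of the GFP+ libraries (19, 1 and 4). Its log2 fold change was 1.43 ± 0.30 (SE; edgeR, adjusted p = 0.0129), and the call was lost without GFP- replicate 20 (0.182), GFP+ replicate 19 (0.196) or GFP+ replicate 4 (0.0573) and in the single-cell protocol libraries alone (0.179). Bik, another BH3-only gene, had a log2 fold change of 1.43 at CPM of at most 1.53 (edgeR, adjusted p = 0.0563), and passed in limma on the deposited log2 RPKM (adjusted p = 0.0448).

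Downstream of the mitochondria, Apaf1, the scaffold of the apoptosome, was at 19.5, 11.9 and 9.24 CPM in GFP- replicates 20, 2 and 5. The GFP+ libraries had 28.3, 16.2 and 17.2 CPM (19, 1 and 4), each above the GFP- libraries of its protocol. The log2 fold change of Apaf1 was 0.61 and did not pass (edgeR, adjusted p = 0.106).

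In the death receptor pathway 1 of 8 tested genes was lower, against 3.68% of all tested genes, and none higher, with a median of -0.00. Fas, the receptor of Fas ligand, had 18.8, 61.4 and 64.1 CPM in the GFP- libraries (20, 2 and 5) against 8.85, 22.9 and 25.9 CPM in the GFP+ libraries (19, 1 and 4). It was lower in GFP+ cells within both protocols, with a log2 fold change of -1.27 ± 0.21 (SE; edgeR, adjusted p = 0.00403). Casp8, whose protein cuts BID, had a log2 fold change of -0.73 (edgeR, adjusted p = 0.0747) and passed in DESeq2 (0.00141) and in limma on the deposited log2 RPKM (0.0397), and Tnfrsf10b, a TRAIL receptor gene, one of 1.04 (0.0995).

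Among 15 tested cytokine receptor, kinase and transcription factor genes that feed into the family, 1 was higher and 1 lower, with a median of -0.32. The shares over all tested genes were 9.81% higher and 3.68% lower. Trp73, a p53 relative, was near 0 in GFP- replicates 20, 2 and 5, at 0.130, 0.0725 and 0.380 CPM, and reached 15.7, 2.37 and 2.76 CPM in GFP+ replicates 19, 1 and 4. Its log2 fold change of 5.72 ± 0.72 (SE; edgeR, adjusted p = 0.00116) rests on few GFP- counts, and was 3.65 in the single-cell protocol libraries alone. Pim2, a survival kinase, fell from 27.6, 21.5 and 37.0 CPM to 13.4, 8.59 and 12.2 CPM, with a log2 fold change of -1.33 ± 0.28 (SE; edgeR, adjusted p = 0.0148), and missed the threshold without GFP+ replicate 1 (0.0872). Il7r and Il2ra, receptor genes of interleukin 7 and interleukin 2, had log2 fold changes of 0.66 and -0.64, and neither passed in edgeR (adjusted p = 0.0997 and 0.111), while both did in DESeq2 (0.0238 and 0.0161) and Il2ra in limma on the deposited log2 RPKM (0.0424). Foxo1, which encodes a factor that drives Bcl2l11, had 14852 and 10380 counts in the poly(A) pair, a log2 ratio of -0.58 (counting interval -0.61 to -0.54). Of the same list, Foxo3 had a log2 ratio of -0.13, Nfkb1 of -0.17 and Jak3 of 0.40 in this pair. All of these come from 1 library a population, without a test. Of 3 tested genes of MCL-1 turnover, Usp9x, Huwe1 and Btrc, none passed, with a median of -0.42.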

How the data were processed

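The authors deposited raw counts per Entrez gene, with a separate table for each protocol. Subread, featureCounts, edgeR and the build mm9 are named, with no versions, per the submitters' processing notes. Whether strand was used is not given in the sources used here. The authors also deposited log2 RPKM per library, which served as an alternative. All columns belonged to the 6 samples.

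Genes were kept by filterByExpr, scaled by TMM and fitted in edgeR 4.0.16 (R 4.3.3, limma 3.58.1) on population and protocol, with 3 residual degrees of freedom. Standard errors come from the F statistic. Alternatives used DESeq2 1.42.0, limma-voom, other scaling and filtering, no protocol term, a block of consecutive title numbers, the single-cell protocol libraries alone, and fits without each library. Genes without single-cell protocol counts were compared in the poly(A) pair with exact binomial intervals.

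Named genes are the members, from each pathway list up to 5 genes with the smallest p and those seen in the poly(A) pair only, and the 3 genes most like Bcl2 and Bcl2l11 with a mean of at least 10 CPM; not all are described, and some results of the apoptosome and caspase list are not reported here. Members and lists were chosen with earlier results of these data known. Promoter windows are RefSeq's for GRCm38.p6 (15 windows of the 10 members), and transcripts were compared on GENCODE's GRCm38 annotation. Since the authors used mm9, no measured coordinates are given.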

Additional observations from a re-analysis of the deposited data

How the results depend on the processing

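No paired analysis was possible because the labels give the populations no shared replicate numbers; a block that joins consecutive title numbers (19 with 20, 1 with 2, 4 with 5) was tried, although the labels do not tie these numbers to animals or days. The count of called members, 3, was 1 with library totals, 0 without the protocol term, 5 with a block of consecutive title numbers and 1 in the single-cell protocol libraries alone, and it ranged from 1 to 3 when 1 library was left out. The count over all genes, 1419, was 2500 without a filter on low counts, 139 without the protocol term, 2921 with the block of title numbers and 708 in the single-cell protocol libraries alone, and between 703 (without GFP+ replicate 19) and 2015 (without GFP- replicate 5) when 1 library was left out. Leaving out GFP- replicate 20 gave 722, and leaving out GFP+ replicate 1 gave 870. The share of higher genes among those called, 72.7%, was 62.7% with DESeq2 and 56.8% with the block. Bcl2 lost its call without the protocol term (adjusted p = 0.134) and in no other alternative that was run, with log2 fold changes of -3.05 to -3.65 when 1 library was left out. Bcl2l1 and Bid passed with the block of title numbers (adjusted p = 0.0145 and 0.0257, edgeR), as did Apaf1 (0.0204), Casp8 (0.0148), Stat5a (0.0130), Il7r (0.0213), Il2ra (0.0245), Bik (0.0257) and Tnfrsf10b (0.0409) of the pathway lists. Over the tested members 87 of 105 alternative values kept direction and side of the threshold, 16 lost the call and 2 gained it. None of the members reversed. Among genes of the pathway lists, 6 of 345 values reversed: Btrc was at 0.016 in the single-cell protocol libraries alone, and with 1 library left out Vdac1 ranged from -0.54 to 0.022, Huwe1 from -1.06 to 0.036 and Btrc from -0.23 to 0.069. Of the members seen in the poly(A) pair only, 0 passed 2-fold on library totals and 2 in the deposited log2 RPKM. The log2 difference in the ratio of Bcl2l11 to Bcl2, 2.32, lay between 1.95 and 2.68 when 1 library was left out. The cause of these changes was not tested, beyond the smaller number of libraries in the fits that leave some out.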

Other observations

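The protocols gave very different levels of some members. Fitted over both populations, Bbc3 was higher in poly(A) than in single-cell protocol libraries by 3.96 on the log2 scale and Bak1 by 2.62, and Bid was at -1.06. Levels of these genes are therefore not comparable between the protocols, while the differences between populations were taken within each.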
